A study of Mus musculus with 88 samples.

Results

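Cytosolic ribosomal protein genes encode the proteins that assemble with ribosomal RNA into the small and large subunits of the cytoplasmic ribosome. They were taken here as the protein-coding genes of the count table whose mouse symbol is Rpl or Rps followed by digits and at most 1 trailing a, l, x or y and 1 digit, together with Rplp0, Rplp1, Rplp2 and Rpsa. Rpl36al and the Rps6k kinases were left out. The rule found 83 of the 55487 genes in the table. Of these, 48 encode large-subunit proteins, 32 small-subunit proteins and 3 the acidic stalk (Rplp0, Rplp1 and Rplp2), which recruits translation factors to the ribosome. There were 77 core genes and 6 paralogues (Rpl3l, Rpl7l1, Rpl10l, Rpl22l1, Rpl39l and Rps27l). The 83 genes lie on 19 chromosomes, with 4 on the X (Rpl10, Rpl36a, Rpl39 and Rps4x).

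Each core protein is needed in about equal number in every ribosome, and most of these genes have no close tissue-specific partner. Their messenger RNAs are short, abundant and usually begin with a tract of pyrimidines (C and T), through which the mTOR pathway sets their translation. Neurons use ribosomes in the cell body and in dendrites, where local translation contributes to synaptic plasticity.

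The libraries came from the nucleus accumbens, a region of the ventral striatum whose main neurons are medium spiny neurons with either the D1 or the D2 dopamine receptor. All mice were on a C57BL/6 background and received 2 herpes simplex virus vectors, and tissue was dissected 6 days after surgery. One vector expressed a Cas9 without nuclease activity, joined to CREB(S133D), a phosphomimetic form of the transcription factor CREB, and the other a guide RNA. The guide was either directed to Fosb, which encodes an activity-induced transcription factor (g11, called targeted in the labels), or non-targeted (gNT, called control), so the controls carried the Cas9 fusion too.

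The D1 groups were D1-Cre mice with Cre-dependent vectors and the D2 groups were D2-Cre mice with Cre-dependent vectors. The D1-D2 groups were D1-Cre mice with Cre-independent vectors, in which expression is not restricted to 1 neuron class. With both sexes this gave 12 groups. Female D1 mice had 8 control and 6 targeted libraries, and male D1 mice had 4 and 7. Female D2 mice had 8 and 8, and male D2 mice 8 and 7. Female D1-D2 mice had 8 and 12, and male D1-D2 mice 7 and 4. All libraries belonged to sequencing batch 1, except that 6 of the male D2 controls and 3 of the male D2 targeted libraries belonged to batch 2. The labels do not say that each library is a separate animal, so the p-values measure the spread between libraries. The tissue was not sorted, so fewer cells of a type and less RNA per cell cannot be told apart, nor can transduced cells be separated from the cells around them.

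Total counts in the 87 libraries ran from 12430387 to 69568367, with a median of 31393804. Medium spiny neuron markers were present in every library (Drd1 at 42.6 to 450 CPM, the count relative to the library total, Drd2 at 12.9 to 205, Ppp1r1b at 65.4 to 834), and Fosb itself was low (2.43 to 16.7). In 4 targeted libraries the 10 most abundant genes held more than 90% of the counts, and in 8 libraries more than 50%. The female libraries 17376 (D1 targeted) and 19749 (D1-D2 targeted) had the Y-linked Ddx3y at 37.0 and 30.9 CPM, against at most 7.20 in the other females and at least 51.3 in males. Library 18722 (male D1 targeted) and library 18749 (male D1-D2 targeted) were nearly the same. Their correlation in log2 CPM, here without TMM scaling, was 0.9973 over 14893 genes, against 0.9929 for the next of 3741 pairs. Several of the results that these libraries could move are given with and without them.

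The promoters are shown because most members moved together in the comparisons below. RefSeq entries on GRCm38.p6 were matched for 63 of the 83 members, giving 75 windows from 250 bases before to 50 bases after a transcript start. Of the 4 lines, Rpl35a and Rpl13 had the lowest changes of all members in batch 2, Rpl11 had the lowest p-value in the comparison of sexes, and Rpl7l1 had the lowest p-value against library complexity. Each line shows 40 bases before and 25 bases from the start, on the transcribed strand, and capitals mark matches of 4 motifs on either strand, namely CTTTCC and the overlapping CTCTTT, then the motif CGGAAG and the longer AAGATGG.

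Rpl35a, chr16:33056442-33056506, plus strand: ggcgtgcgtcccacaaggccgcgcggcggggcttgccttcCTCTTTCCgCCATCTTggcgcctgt
Rpl13, chr8:123102310-123102374, plus strand: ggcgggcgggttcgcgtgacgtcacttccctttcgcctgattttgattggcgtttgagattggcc
Rpl11, chr4:136053369-136053433, minus strand: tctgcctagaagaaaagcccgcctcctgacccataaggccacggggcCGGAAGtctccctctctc
Rpl7l1, chr17:46782632-46782696, minus strand: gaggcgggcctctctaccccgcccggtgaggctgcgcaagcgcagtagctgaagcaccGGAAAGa

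Rpl35a has 3 annotated starts, and the window of the second one in genome order is shown. It holds a run of pyrimidines at the start followed by a match of AAGATGG on the other strand, while the Rpl13 bases shown hold none of the 4 motifs. CGGAAG, the core of the sites bound by ETS-family factors, was found in 60% of the members' windows and in 21.1% of 21263 windows of 17492 protein-coding genes. CTTTCC was found in 49.3% against 25.9%, and CTCTTT, which overlaps it in places, in 44.0% against 21.6%. AAGATGG, part of the motif of the factor YY1, was found in 16.0% against 6.24%. TATAAA was found in 9.33% against 12.6%. A C followed by 4 pyrimidines exactly at the annotated start was found in 17.3% of the members' windows against 2.21%, and anywhere from 10 bases before to 15 bases after the start in 54.7% against 31.1%. These matches describe the letters in the windows and not binding.

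Levels were compared between members as CPM per kilobase of exon, averaged over all libraries. The 77 core genes spanned 29.1 to 1122 on this scale, with a median of 130. Before division by length they spanned 62.7 CPM (Rpl29) to 750 (Rpl3), with a median of 253. Rplp1, a stalk protein, was highest per kilobase at 1122, followed by Rps15 at 498, Rps29 at 483, Rps3a1 at 442 and Rpl36 at 334. The lowest were Rpl10l at 0, Rpl3l at 0.108, Rpl39l at 0.425, Rpl7l1 at 12.3 and Rps27l at 29.08. Rpl21 was just above Rps27l at 29.12. With the length of the principal transcript in place of all exons, 2 of the top 5 and 4 of the bottom 5 were the same genes.

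**Figure D1:**
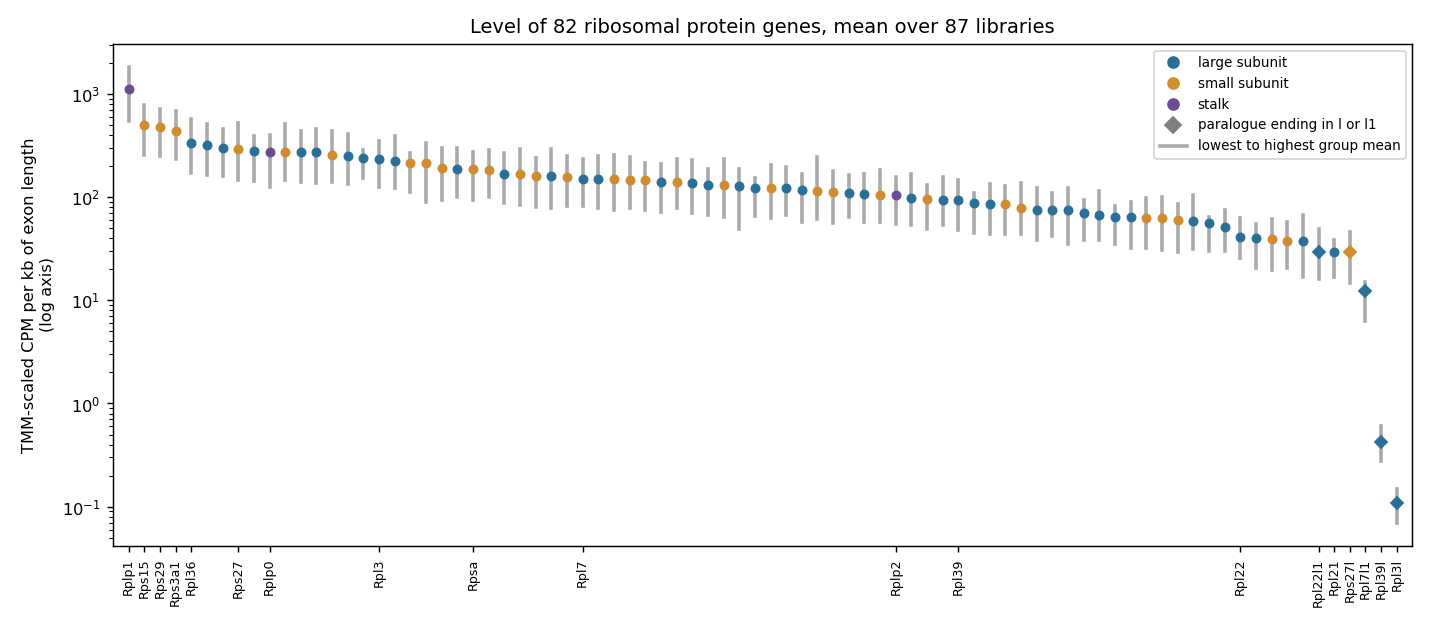
Mean TMM-scaled level of the 82 ribosomal protein genes with counts over 87 libraries, in CPM per kilobase of exon on a log axis, ordered from highest to lowest. Names are given for both ends of the order, the paralogue pairs, the stalk and Rpsa. Colours separate large subunit, small subunit and stalk, diamonds mark paralogues, and grey bars run from the lowest to the highest group mean. Rplp1 stands highest at 1122, and Rpl39l and Rpl3l lie far below the rest at 0.425 and 0.108.

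The paralogues were below their core partners in every pair measured. In CPM, Rpl3 stood at 750 and Rpl3l, known from striated muscle, at 0.178. Rpl39 stood at 134 and Rpl39l, known from testis, at 0.353. Rpl10 stood at 242, and Rpl10l, a retrogene expressed in male germ cells, had 0 counts in all libraries. The remaining pairs were closer, with Rpl7 at 403 and Rpl7l1 at 43.0, Rps27 at 303 and Rps27l at 23.7, and Rpl22 at 118 and Rpl22l1 at 59.0. The X-linked Rps4x stood at 349, and Rps4l was not among the protein-coding genes of the table. The GENCODE M21 annotation, used here for gene symbols, names 292 pseudogenes of 60 members. Reads that fit both copies could have been split or dropped in the authors' counting. Of the members, 30 hold a total of 58 small nucleolar RNA genes inside their introns.

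Members moved together between libraries of the same group. After the group mean was taken from each library's log2 CPM, the median correlation between pairs of members was 0.787 over 3321 pairs, and 98.8% of the pairs were above 0. The median was 0.0686 over pairs of 2542 genes taken at every 10th position of the table. The points share libraries, scaling and length of transcript, so this is a description. With the mean of the other members, 64 of 82 had a correlation above 0.8, and the highest were Rpl12 at 0.972 and Rps7 at 0.969. Rpl29 had 0.041, the lowest value, followed by Rpl3l at 0.288, Rps16 at 0.318, Rpl39l at 0.376, Rpl28 at 0.396 and Rpl4 at 0.408. Among members with a mean of at least 1 CPM, the SD of log2 CPM within groups was lowest for Rpl4 (0.149), Rpl21 (0.177) and Rpl6 (0.192), and highest for Rps27l (0.550), Rpl22l1 (0.449) and Rps14 (0.385). Below that level Rpl39l had 1.16 and Rpl3l 0.687, on few counts.

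The summed level of the members had its highest group mean in the male D1 controls and was lowest in batch 2. Levels are TMM-scaled CPM, a common scale set from genes outside the extremes. The male D1 controls had 37257, 34807, 31370 and 27142, a mean of 32644 ± 4392 (SD, n = 4). Male D1 targeted libraries had 27768 ± 4145 (SD, n = 7), with a lowest value of 21778, a median of 27110 and a highest of 34124. The female D1 controls had 20732 ± 3693 (SD, n = 8; 15568 to 25074) and the female D1 targeted libraries 19610 ± 3143 (SD, n = 6; 16560 to 25459). All 8 female D1 controls were below all 4 male D1 controls.

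Of the other groups, female D2 libraries had 21606 ± 2810 (SD, n = 8) in controls and 22119 ± 3017 (SD, n = 8) with the Fosb guide. Female D1-D2 libraries had 18514 ± 3418 (SD, n = 8) and 20629 ± 4311 (SD, n = 12). Male D1-D2 libraries had 22393 ± 5050 (SD, n = 7) and 19933 ± 4594 (SD, n = 4), where library 18749 had 26478 and the other targeted libraries 16383 to 19737. Female and male D1-D2 libraries overlapped over most of their range. In male D2 mice, batch 1 had 24978 and 26257 in the 2 controls and 28399 ± 3262 (SD, n = 4) with the Fosb guide. Batch 2 had 5899 ± 964 (SD, n = 6) and 5759 ± 693 (SD, n = 3).

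**Figure D2:**
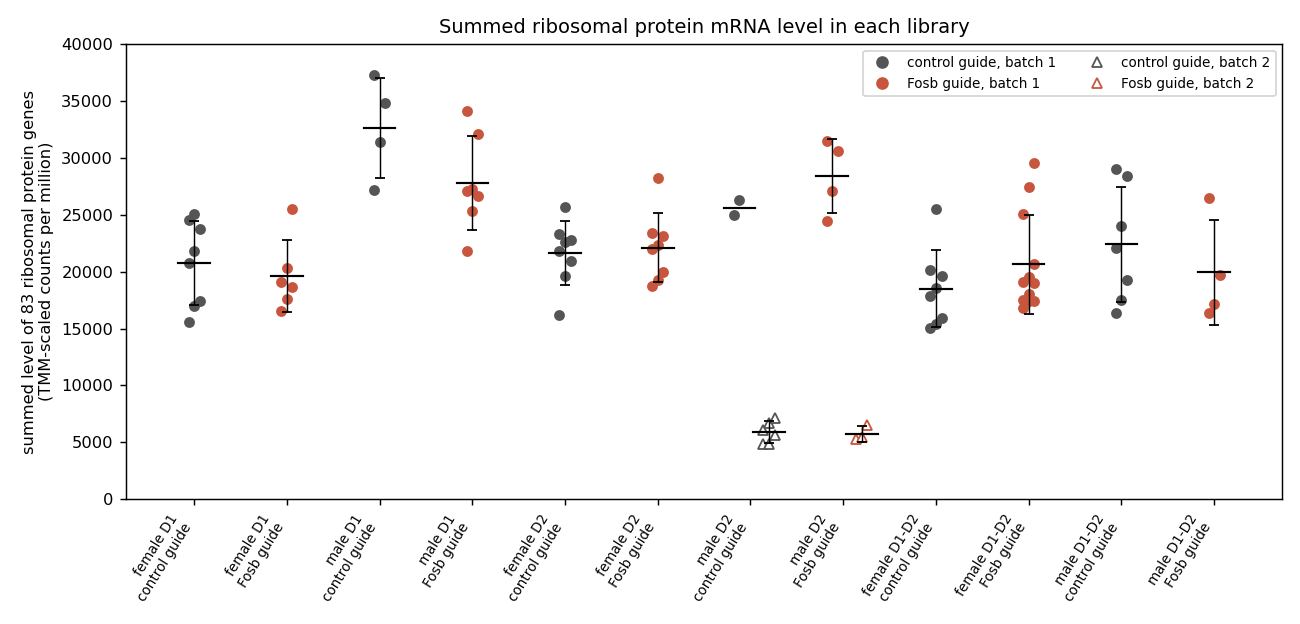
Summed TMM-scaled CPM of the 83 ribosomal protein genes in each library (circles for batch 1, open triangles for batch 2, grey for the control guide, red for the Fosb guide), with the mean (horizontal line) and SD of each group and, in male D2, of each batch; the pair of male D2 batch 1 controls has no SD bar. The male D1 controls sit between 27142 and 37257 and the 9 batch 2 libraries between 4821 and 7184.

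Between the Fosb guide and the control guide, no member passed the test in any of the 6 pairs of groups, nor in the mean over all 6. The test was edgeR's quasi-likelihood test with Benjamini-Hochberg adjustment over 25420 genes, of which 82 were members (Rpl10l had no counts). Over all genes, the share that passed was 0.00393% in female D1 and 0.0% in male D1. The D2 groups had 0.0% (females) and 0.0629% (males), the D1-D2 groups 0.0% (females) and 0.00393% (males), and the mean 0.0%. At an unadjusted p under 0.05 the members had 0 calls in female D1 (4.48% of all genes), and likewise 0 in the D2 groups (1.66% of all genes for females, 2.18% for males). They had 2 lower in male D1 (2.45%), 9 higher in female D1-D2 (2.07%), 1 lower in male D1-D2 (2.68%) and 1 lower in the mean (5.94%). DESeq2 called 0 members in all 6 pairs, and limma-voom with quality weights called 1, Rps27a in male D1. The edgeR count was also 0 in each pair without libraries 17376 and 19749, without 18722 and 18749, and without the libraries above 90% or above 50%.

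The members' median log2 change was −0.08 in female D1, with 10 of 82 above 0 (50.8% of all genes), and −0.22 in male D1, with 1 above 0 (54.0%). It was 0.04 in female D2 mice (55 above 0, against 43.1%) and 0.04 in males of that kind (61 above 0, against 52.7%). In D1-D2 mice it was 0.16 in females, with 82 of 82 above 0 (49.0%), and −0.15 in males, with 4 above 0 (45.4%). Since members move together between libraries, such a shared sign is close to a single observation, and the groups' summed levels overlapped in every pair. The guide effect in male D1 minus that in female D1 had a median of −0.14, with 0 members called (0.00393% of all genes) and 1, Rps27a, lower at an unadjusted p under 0.05 (1.56%). The guide effect in D1 minus that in D2 had a median of −0.18, with 0 called (0.00393%) and 2, Rpl21 and Rpl7a, lower at an unadjusted p under 0.05 (1.36%).

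**Figure D3:**
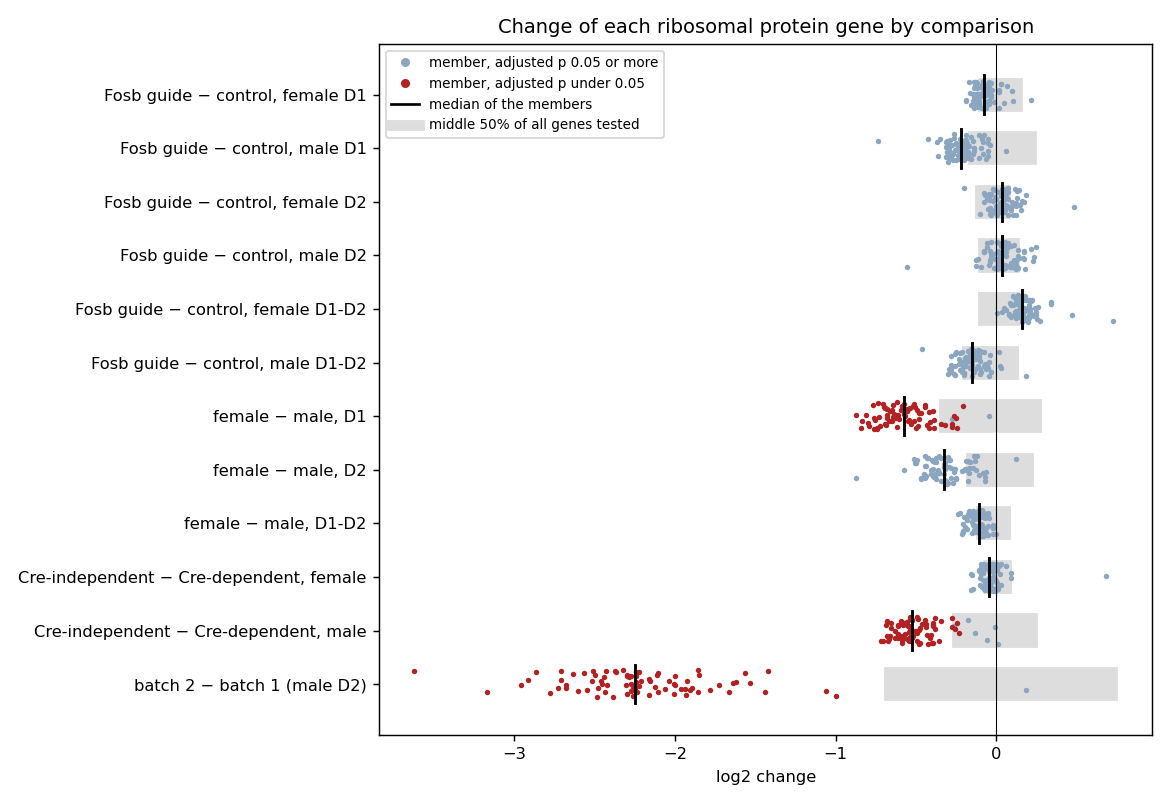
Log2 change of each of the 82 tested ribosomal protein genes (points, red where the adjusted p from edgeR was under 0.05) in 12 comparisons, with the members' median as a black line and the middle 50% of all tested genes as a grey bar. The guide comparisons lie close to 0 with no red point, the changes between the sexes in D1 and between vectors in males have medians of −0.58 and −0.53, and batch 2 minus batch 1 has a median of −2.25.

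Rps27a had the lowest p-value of any member in a guide comparison. It encodes ubiquitin fused to the small-subunit protein eS31 and lies on chr11:29545846-29548109, minus strand, on the mm10 build (gene positions from GENCODE M21). In male D1 the controls had 575, 495, 439 and 410 TMM-scaled CPM, and the 7 targeted libraries had 186 at the lowest, 283 at the median and 351 at the highest. The groups did not overlap, but Rps27a was picked for its p-value, so this is not a second result. The share of all genes without overlap in this pair is not given here. The log2 change was −0.74 (SE 0.22, unadjusted p = 0.00113), which did not pass over all genes (edgeR, adjusted p = 0.686). In male D1-D2 the 7 controls ran from 198 to 418 and the 4 targeted libraries from 150 to 305, with a log2 change of −0.46 (edgeR, unadjusted p = 0.0438). The log2 change over the mean of the 6 pairs was −0.28 (SE 0.08, edgeR adjusted p = 0.516). In females the median level of Rps27a with the Fosb guide was 203 in D1 against 217 in controls, 223 against 271 in D2 and 196 against 208 in D1-D2, and these groups overlapped. In male D2 mice the Fosb guide went with the higher mean in batch 1, at 225 to 407 in 4 libraries against 296 and 324 in the controls, and with the lower mean in batch 2, at 48.1 ± 6.77 (SD, n = 3) against 57.5 ± 10.3 (SD, n = 6), with overlap in both.

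Other members were less separated. Rpl5, a large-subunit protein that travels with the 5S ribosomal RNA, had −0.36 in male D1 (edgeR, unadjusted p = 0.0306). In female D1-D2 Rpl3l had 0.73 (edgeR, unadjusted p = 0.0130), at a mean over all libraries of 0.178 CPM.

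Genes of related functions were set beside the members in the 2 pairs of groups with the widest medians. In male D1, nuclear oxidative phosphorylation genes had a median of −0.25 (11 of 85 above 0), mitochondrial ribosomal proteins −0.15 (4 of 78), translation factors −0.12 (7 of 18) and ribosome assembly factors 0.10 (21 of 30), beside 0.03 for all genes. Lymphocyte markers had a median of 0.82 there with 12 of 12 above 0, at summed levels of 16.3 to 353 CPM in controls and 217 to 440 in targeted libraries, and their part in the result was not tested. In female D1-D2 the medians were 0.03 for oxidative phosphorylation (57 of 85 above 0), 0.03 for mitochondrial ribosomal proteins (53 of 78), 0.09 for translation factors (15 of 18) and −0.06 for assembly factors (8 of 30). No gene of these lists passed the edgeR test in either pair.

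Females had lower levels of the ribosomal protein genes than males. Over the 6 pairs of groups matched on vector and guide, 76 of 82 members were lower in females and none higher, where 15.0% of all genes were lower and 32.5% passed in either direction. The median log2 change was −0.35, from −0.53 (Rps21) to 0.02 (Rpl29). All 32 small-subunit genes, all 3 stalk genes and 41 of 47 tested large-subunit genes passed. Those that did not included Rpl3l, Rpl7a, Rpl7l1, Rpl39l and Rpl29.

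The difference was largest in the D1 groups. Rpl11, a large-subunit protein of the 5S ribonucleoprotein that can bind the p53 regulator MDM2, lies on chr4:136028265-136053428 and had the lowest p-value. It stood at 494, 457, 394 and 340 TMM-scaled CPM in the male D1 controls and at 280 to 415 in the male D1 targeted libraries, with a median of 326. In female D1 it stood at 185 to 293 in controls (median 239) and 195 to 285 in targeted libraries (median 223). The controls of the sexes did not overlap, and the targeted libraries overlapped slightly. As Rpl11 was picked for its p-value, this is not a second result, and the share of all genes without overlap is not given here. In D1 mice the log2 change of Rpl11 was −0.69 (SE 0.10, edgeR adjusted p = 1.86e-06), and over all 6 pairs it was −0.41 (SE 0.06, edgeR adjusted p = 2.25e-06).

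Within the D1 groups 80 of 82 members were lower in females (15.8% of all genes lower, 33.7% either way) with a median log2 change of −0.58, and the 2 that did not pass were Rpl39l and Rpl29. In D2 mice the median was −0.32 and 0 members passed edgeR's test (0.0905% of all genes), with 59 lower at an unadjusted p under 0.05 (7.11%), and DESeq2 and limma-voom also called 0. The lowest p there was that of Rpl23 (−0.38, edgeR adjusted p = 0.187). In D1-D2 mice the median was −0.11, with 0 called (0.0787%) and 0 at an unadjusted p under 0.05 (3.86%), and DESeq2 and limma-voom called 0. The D2 comparison relies on the 6 male libraries of batch 1 and on the batch term for the others.

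The difference between the sexes itself differed between the D1 and the D1-D2 vectors for 12 members, all lower (0.932% of all genes lower, 2.94% either way), with a median of −0.46. Rpl5 had −0.59 (SE 0.15, edgeR adjusted p = 0.0340), Rpl11 −0.54 (adjusted p = 0.0345), Rpl31 −0.60 and Rpl22 −0.49. This count rested on single libraries. It was 0 without the male D1 control 17789 or 18068 or the male D1-D2 targeted library 17728 or 19211, and 1 without 18919. It was 5 without the male D1 control 18069, 42 without 18383 and 61 without 18749. It was 51 with DESeq2, 2 without the 2 female libraries with Y-linked transcripts and 0 without the 8 libraries above 50%, while the median stayed between −0.52 and −0.41 when 1 library was left out.

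The 4 X-linked members were lower in females like the rest. Over the 6 pairs Rpl36a had a log2 change of −0.44, Rpl39 −0.37 (edgeR adjusted p = 3.81e-04), Rpl10 −0.20 (adjusted p = 0.00669) and Rps4x −0.14 (adjusted p = 0.0408). Rps4x had the value nearest to 0 of the 4. Of the stalk and its neighbours, Rplp0 had −0.28, Rplp1 −0.31, Rplp2 −0.35 and Rpsa, a small-subunit protein also known as the laminin receptor, −0.28, and all of these passed.

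Other genes of protein synthesis and of mitochondria were also lower in females. Fau and Rack1, which encode ribosomal proteins under other names, had log2 changes of −0.35 and −0.30, and both passed. Mitochondrial ribosomal proteins had 45 of 78 lower and 2 higher with a median of −0.14, oxidative phosphorylation genes 51 of 85 lower and 4 higher with −0.18, and translation factors 11 of 18 lower and 2 higher with −0.21. Ribosome assembly factors had 11 of 30 higher and 5 lower, with a median of 0.09.

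Markers of other cells, and genes by their exon length, moved with the sexes too. In the D1 groups 4 of 5 astrocyte markers were higher in females, with a median of 0.65. Their summed level was 1510 to 1749 CPM in male D1 controls and 1456 to 3096 in male D1 targeted libraries, against 2060 to 3501 and 2361 to 3281 in the female groups. In the same groups 3 of 10 medium spiny neuron markers were higher in females, with a median of 0.34. The tested protein-coding genes other than the members were put in 5 bins by exon length, taken over all annotated exons. The shortest bin (up to 2293 bases) had a median of −0.07 over the 6 pairs and the longest (from 7328 bases) 0.11. The mitochondrial genome held 9.44% ± 4.74 (SD, n = 28) of the counts in batch 1 males and 6.68% ± 4.02 (SD, n = 50) in females. The part of these in the result was not tested.

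The count of calls between the sexes depended on scaling and on the batch term. With total counts in place of TMM, 0 members were called at a median of −0.38, and without the batch term 2 were called at −0.03, since all batch 2 libraries are male. With batch 1 alone 75 were called, without the 2 female libraries with Y-linked transcripts 78, and without libraries 18722 and 18749 71, at a median of −0.29.

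Cre-independent vectors went with lower levels than Cre-dependent vectors in D1-Cre mice. Over both sexes and guides 66 of 82 members were lower (3.58% of all genes lower, 9.76% either way) and none higher, with a median log2 change of −0.28. Rpl27, a large-subunit protein on chr11:101442298-101445529, had −0.36 (SE 0.08, edgeR adjusted p = 0.0133). Rps10, a small-subunit protein, had −0.35, Rplp2 −0.30, Rpl8 −0.24 and Rpl36 −0.35. Rpl3l had the highest value, 0.31, and did not pass. The D1 and D1-D2 libraries are also those of the comparison of sexes, so the counts of the comparisons are not independent.

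In males Rpl27 stood at 217, 209, 226 and 168 CPM in the D1 controls and at 132 to 245 in the D1 targeted libraries, with a median of 181. In male D1-D2 mice it stood at 92.6 to 182 in controls (median 138) and at 106, 174, 102 and 119 in targeted libraries. Most male D1-D2 libraries were thus below the male D1 controls, with some overlap. In females the D1 controls ran from 100 to 167 and the D1-D2 controls from 77.9 to 167, and the targeted libraries ran from 98.5 to 173 in D1 and from 88.1 to 183 in D1-D2. The female ranges overlapped over nearly their whole length.

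Within males 75 of 82 members were lower with the Cre-independent vectors (7.71% of all genes lower, 19.5% either way), with a median of −0.53, and Rpl11 had −0.54 (SE 0.11, edgeR adjusted p = 0.00157). The 7 that did not pass were Rps27l, Rps4x, Rpl7l1, Rpl4, Rpl3l, Rpl39l and Rpl29. Within females 0 passed edgeR's test (0.0118% of all genes), 1 (Rpl3l) was higher at an unadjusted p under 0.05 (2.07%), DESeq2 and limma-voom also called 0, and the median was −0.05. The test of the difference between the sexes is the same contrast as the one given above for the vectors. In males 59 of 85 oxidative phosphorylation genes and 47 of 78 mitochondrial ribosomal proteins were lower too, and 2 of 5 astrocyte markers were higher, with a median of 0.49. Over both sexes the oligodendrocyte markers summed to 2969 ± 607 CPM in the D1-D2 groups (SD, n = 31) against 2350 ± 597 in the D1 groups (SD, n = 25), with 1 of 6 called higher, and the lymphocyte markers to 191 ± 121 against 249 ± 110. The part of these markers in the result was not tested.

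Without libraries 18722 and 18749 the count over both sexes was 70, and without 17376 and 19749 it was 66. Leaving out 1 library of the male D1 controls or male D1-D2 targeted libraries moved it between 36 and 73. It was 41 without the male D1 control 17789, 36 without the male D1-D2 targeted library 17728 and 38 without 19211. With total count scaling, and without the batch term, 0 members were called over both sexes and 0 in males, at medians of −0.29 and −0.28 over both sexes.

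D2-Cre mice did not differ detectably from D1-Cre mice with the same Cre-dependent vectors. With edgeR 0 of 82 members passed (0.00787% of all genes) and 0 had an unadjusted p under 0.05 (1.61%), at a median of −0.01, and DESeq2 and limma-voom called 0. This comparison depends on the batch term, since without it 80 members were called at a median of −0.48. How many of all genes were called without that term is not given here.

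Over all 12 groups at once, 73 of 82 members differed in edgeR's F test, where 16.4% of all genes did. The largest values were those of Rpl11 (F = 7.57, adjusted p = 8.82e-06), Rpl22, a large-subunit RNA-binding protein (F = 7.01, adjusted p = 3.17e-05), and Rpl36a (F = 6.53, adjusted p = 7.41e-05). With total count scaling 0 members passed.

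The widest difference was between the sequencing batches of the male D2 mice. In batch 2, 81 of 82 members were lower (29.7% of all genes lower, 62.3% either way) with a median log2 change of −2.25, or 4.75 times lower, beside 0.01 over all genes. The members held 0.812% ± 0.137 (SD, n = 9) of all counts in batch 2 and 3.20% ± 0.474 (SD, n = 6) in the male D2 libraries of batch 1. For 80 members all 9 batch 2 libraries were below all 6 male D2 libraries of batch 1, which was the case for 18% of all genes. What batch 2 stands for in tissue, preparation or sequencing cannot be told apart here, as all its libraries are male D2.

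Rpl13, a large-subunit protein on chr8:123102350-123105244, had the lowest p-value. Its levels in batch 1 were 386 and 357 CPM in the controls and 494, 471, 423 and 389 in the targeted libraries, while the 9 batch 2 libraries ran from 37.3 to 55.1 with a median of 44.8. The log2 change was −3.17 (SE 0.13, edgeR adjusted p = 1.99e-36). Rpl35a, another large-subunit protein, whose window carries the pyrimidine run shown above, stood at 165 to 251 in batch 1 (median 188) and at 13.0 to 22.5 in batch 2 (median 16.0), with a log2 change of −3.62 (SE 0.20, adjusted p = 4.20e-27).

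At the other end, Rpl29, a large-subunit protein that binds heparin at the cell surface, stood at 47.0 to 83.2 (median 62.4) in batch 1 and at 25.6 to 34.0 (median 28.3) in batch 2, a log2 change of −1.0. Rpl4 had −1.06 and Rpl21 −1.42. Rpl3l had 0.18 and was the only member not called. The stalk genes had −2.51 (Rplp1), −2.27 (Rplp2) and −2.21 (Rplp0), and Rpsa had −2.16. The other 4 tested paralogues were lower, with Rpl22l1 at −2.23, Rps27l at −2.26, Rpl39l at −2.63 and Rpl7l1 at −1.73. The medians were −2.11 for the large subunit and −2.31 for the small subunit.

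Fau and Rack1 were lower in batch 2, with log2 changes of −2.45 and −2.15. Of the translation factors 15 of 18 were lower with a median of −1.22, of the oxidative phosphorylation genes 77 of 85 with −1.35, and of the mitochondrial ribosomal proteins 71 of 78 with −0.88. Assembly factors had 8 of 30 higher and 9 lower, with a median of −0.03. Among tested protein-coding genes other than the members, the 5 bins by exon length had medians of −0.51 (shortest), −0.15, 0.06, 0.22 and 0.43 (longest). Across the 82 members the change had a Spearman correlation of 0.42 with the length of the principal transcript and of −0.21 with the level per kilobase. Members with a small nucleolar RNA gene inside had a median of −2.19 (30 genes) and those without −2.27 (52 genes).

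Other features of the libraries moved with batch 2. Genes annotated as small or ribosomal RNA, the ribosomal RNA gene CT010467.1 among them, held 1.33% ± 0.27 of its counts. In the male D2 libraries of batch 1 they held 8.53% ± 1.98. The mitochondrial genome, counted apart, held 4.36% ± 1.32 against 10.9% ± 4.72. Genes detected after thinning to equal depth numbered 29158 or more in every batch 2 library and 28757 or fewer in the male D2 libraries of batch 1. The summed markers of cortical glutamatergic neurons were 361 ± 326 CPM against 68.4 ± 120, and 3 of the 6 markers were higher. Microglia markers summed to 1320 ± 416 against 2479 ± 1025, with 6 of 12 lower and 1 higher, and lymphocyte markers to 142 ± 88.1 against 252 ± 140, with none of 12 called. Their part in the result was not tested.

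Library complexity was measured as the share of counts held by the 10 most abundant genes of a library. In the libraries above 90% these genes were led by CT010467.1, a ribosomal RNA gene, with 30.8% to 33.2% of all counts. The mitochondrial ribosomal RNA gene mt-Rnr2 was among the 10 in all 87 libraries, at a median of 5.29% and up to 18.2%. A high share therefore need not mean few genes detected. Library 18366 had a share of 29.5%, with 22.5% in the mitochondrial genome, and 28997 genes detected after thinning. How far the results below follow mitochondrial RNA was not tested. No difference in the 10-gene share between guides passed in the 6 pairs of groups. Exact permutation p-values (two-sided) ran from 0.212 to 0.892 unadjusted and were at least 0.6 adjusted. The male D2 value (0.892) pools the batches, and within each batch the share was lower with the Fosb guide. In batch 1 it was 15.6% ± 3.39 (SD, n = 4) against 25.9% ± 3.89 (SD, n = 2) without overlap, at an exact permutation p of 0.0667, the smallest that 15 splits allow. In batch 2 it was 5.48% ± 0.610 (SD, n = 3) against 7.13% ± 1.09 (SD, n = 6), with an exact permutation p of 0.0595. It ran higher with the Fosb guide in female D2 (34.2% ± 37.6 against 14.6% ± 5.37, n = 8 each, exact permutation p = 0.269), and 2 of the 4 libraries above 90% were in that group.

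In the 4 libraries above 90%, the members held 0.0883% to 0.203% of all counts, from 11898 to 25262 counts. Outside the 10 most abundant genes they held 2.77%, 2.93%, 3.36% and 2.34%, and the other 74 batch 1 libraries held 2.00% to 5.33% (3.16% ± 0.81, SD). The members' share of the remaining counts in these libraries was thus within the range of the others. Across the 78 libraries of batch 1, the share of all counts had a Pearson correlation of −0.67 and a Spearman correlation of −0.04 with the 10-gene share. For the summed TMM-scaled level these were −0.01 and 0.39. Without the 4 libraries they were 0.17 and 0.48 over 74 libraries, and without the 8 above 50% they were 0.44 and 0.57 over 70. In batch 2 they were 0.31 and 0.28 over 9 libraries. These points share the total count in both measures and include differences between groups.

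**Figure D4:**
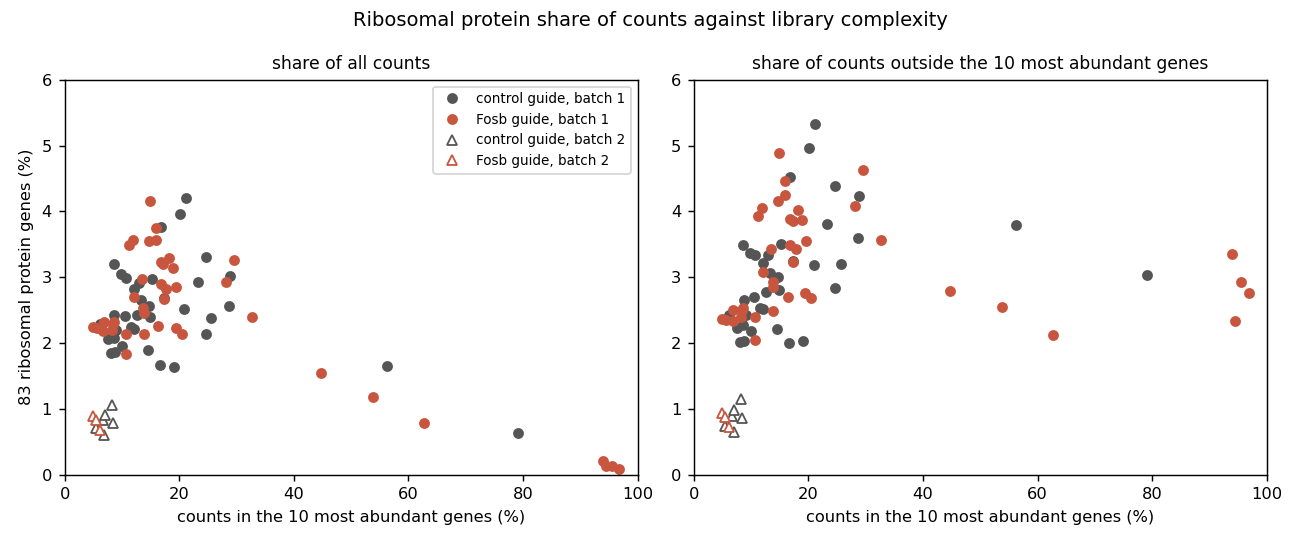
Share of counts held by the 83 ribosomal protein genes (vertical axes, percent) against the share held by the 10 most abundant genes (horizontal axes, percent), 1 point per library, over all counts on the left and over the counts outside those 10 genes on the right. Circles are batch 1 and open triangles batch 2, with the control guide in grey and the Fosb guide in red. The 4 libraries above 90% fall to 0.0883% to 0.203% on the left but lie at 2.34% to 3.36% on the right.

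Within groups, the slope of log2 level on this share passed for 2 of 82 members, both lower (6.82% of all genes lower, 7.76% either way). Rpl7l1 had −0.05 per 10 percentage points (SE 0.011, edgeR adjusted p = 0.00549) and Rpl18, a large-subunit protein, −0.05 (SE 0.016, edgeR adjusted p = 0.0262). The median slope of the members was −0.01 and that of all genes −0.01. The lowest slopes were those of Rps27l (−0.07), Rpl22l1 (−0.06) and Rpl18, and the highest those of Rpl39l (0.06), Rpl3l (0.04) and Rpl17 (0.03). The 2 calls rested on few libraries. Without the 4 libraries above 90% edgeR called 0, and without the 8 above 50% it called 53, of which 52 were higher. The share of all genes called in these settings is not given here, so the 53 cannot be set against it. With total count scaling 82 were called at a median of −0.40, beside −0.38 for all genes.

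Rpl29 went with the other core genes less than any of them within groups, and it had the lowest mean count of the core genes and the highest change between the sexes. Its group means in batch 1 outside male D2 ran from 61.1 CPM (female D1 targeted) to 71.7 (female D1-D2 targeted). The male D1 controls had 65.4 and the female D1 controls 68.7. In batch 1 male D2 mice Rpl29 was lower in the 2 controls, at 47.0 and 48.5, and stood at 71.0 ± 11.2 (SD, n = 4) with the Fosb guide. Its log2 change was −0.04 between the sexes in D1 and 0.01 between the vectors in males, where most members were lower. Rpl29 was picked out after these values were seen.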

How the data were processed

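Gene counts of the accumbens libraries were deposited by the authors as 1 table of raw counts per gene. Per the submitters' processing notes, the tools were Trim Galore, HISAT2, SAMtools, featureCounts (Subread) and DESeq2 1.27, on mm10. For the counting annotation and the strand setting, nothing is given in the sources used here. Symbols were taken from GENCODE M21, which held 55394 of the 55487 identifiers. Of 88 columns 87 were mapped to libraries by their names, and 1 was not used. The 9th female D2 targeted library was not analysed here.

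Counts were scaled with TMM, genes low in all groups were dropped by filterByExpr (25420 kept), and edgeR 4.0.16 (R 4.3.3) was fitted with robust quasi-likelihood on 12 group means and a batch term, with Benjamini-Hochberg adjustment over all genes and a threshold of 0.05. Complexity was added as a slope per 10 percentage points. Group differences in complexity were tested by exact permutation. Alternatives were DESeq2 1.42.0, limma-voom 3.58.1, other scaling, no filter, no batch term and left-out libraries. On simulated counts for female D1, the edgeR fit recovered 96%, 88%, 78% and 96% of 50 genes at log2 changes of −2, −1, 1 and 2. Smaller changes, of the size of the members' medians between guides, were not simulated. Each gene was drawn independently there, whereas the members moved together. Depth limits low genes such as Rpl3l, with 634 counts in all.

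The members, the comparison lists (translation and assembly factors, Fau and Rack1, mitochondrial ribosome, oxidative phosphorylation, cell type markers) and the tests were chosen with earlier results of these data known. Genes named in each comparison are the member with the lowest p in each direction and up to 4 further that pass, the 5 highest and lowest per kilobase, the 3 most and least variable within groups, the 3 extreme slopes, paralogue pairs, X-linked members, the stalk and Rpsa. Some results that this rule names are not reported here.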

Additional observations from a re-analysis of the deposited data

Results flagged for a closer look

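In 143 checks of a named member within a group of 4 to 10 libraries, 11 had a highest or lowest library set apart from the rest by a gap above Dixon's 95% critical value. Chance gives about 1 such gap in 20 groups. All 11 were highest values. Library 18749 (male D1-D2 targeted, nearly the same as the male D1 targeted library 18722) had Rpl11 at 318 TMM-scaled CPM, against 200 to 217 in the others, and Rpl22 at 162, against 92.4 to 103. Library 17435 (female D1 targeted) had 4 such members, namely Rplp1 at 746 (others 460 to 551), Rpl22l1 at 96.6 (40.2 to 57.8), Rps27 at 429 (218 to 289) and Rpl3 at 933 (625.1 to 726). Library 19762 (female D1-D2 control) had Rpl22 at 141 (83.3 to 108) and Rps27l at 41.8 (7.75 to 21.7). Single members stood apart in library 18368 (male D1 targeted, Rpl13 at 562, others 375 to 443), library 16583 (female D1 control, Rpl29 at 80.7, others 61.6 to 70.2) and library 18142 (female D2 targeted, Rps27 at 440, others 231 to 323).

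The difference between the sexes was lower in D1 than in D1-D2 mice for 12 members by edgeR's test of that difference. The log2 values were −0.59 for Rpl5, −0.54 for Rpl11, −0.60 for Rpl31 and −0.49 for Rpl22. The count ran from 0 to 61 when 1 library was left out.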

How the results depend on the processing

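No paired analysis was possible because the numbers in the labels are unique to each library and the groups share none. Results below are those whose count moved by more than 1.5 times or whose median moved by more than 0.23. The latter is the SD of the members' mean log2 level within groups. The cause was not tested unless stated. Counts of calls under other settings, here and above, are given without the share of all genes called there. With total count scaling, 0 members were called between the sexes, between the sexes in D1, between vectors, between vectors in males, among the 12 groups and in the difference of the sex difference. The same scaling gave guide medians of −0.28 in female D2 and −0.38 in male D1-D2, beside −0.34 and −0.30 for all genes, a batch median of −1.97 beside 0.29, and 82 calls at a median of −0.40 for the complexity slope. Under this scaling the median of all genes shifted by 0.18 in male D1 and −0.21 in female D1-D2, and the members had −0.06 in female D1-D2.

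Without the batch term, the batch 2 libraries enter the male D2 groups directly. Then 11 members were called for the male D2 guide (median 0.79), 2 between the sexes (median −0.030), 45 in D1, 77 in D2 (median 0.61), 80 between D2-Cre and D1-Cre (median −0.48), 0 between vectors, 0 between vectors in males and 0 in the difference of the sex difference. The median guide effect in D1 minus D2 was −0.56. Limma-voom called 1 member for the male D1 guide.

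The calls on the complexity slope were 1 without the filter, 0 with DESeq2 size factors, 0 with DESeq2, 5 with limma-voom, 0 without the batch term, 0 without the libraries above 90%, 0 without 18722 and 18749, and 19 with complexity as genes detected after thinning to 12430387 counts. The difference of the sex difference had 0 calls without the filter, 51 with DESeq2, 70 with limma-voom, 1 without the libraries above 90% and 61 without 18722 and 18749. Settings added after seeing the data were without the libraries above 50% (53 calls on the slope, 0 on the difference), batch 1 alone (0 and 2) and without 17376 and 19749 (2 on the difference). The comparisons of batches, of sexes within vectors and of vectors within sexes were also added then.

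Leaving out 1 library of the male D1 controls or the male D1-D2 targeted libraries gave 36 to 73 calls between vectors, 0 to 2 on the slope and 0 to 61 on the difference. The ranges were 71 to 80 between the sexes, 74 to 80 in D1, 67 to 77 between vectors in males and 63 to 75 among the 12 groups.

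Some members turned direction, none of them called in the fit reported. For the male D1 guide Rpl29 had −0.050 with limma-voom and −0.052 without libraries above 50%, and −0.032 to 0.11 with 1 library left out, and it had −0.039 for the mean guide effect with total counts. Between the sexes Rpl29 had −0.032 with DESeq2 size factors, −0.010 with total counts, −0.034 with DESeq2, −0.017 with limma-voom and −0.0072 without libraries above 50%, and −0.036 in D2 with total counts. Between vectors in males Rpl29 had −0.032, −0.052, −0.035 and −0.043 (DESeq2 size factors, total counts, DESeq2, without libraries above 50%), and −0.038 to 0.078 with 1 library left out. With total counts Rpl21 had −0.26 for the female D2 guide and Rpl17 a slope of −0.37. Rpl39l had −0.49 to 0.53 for the male D1-D2 guide with 1 library left out. Without the batch term Rpl39l had −0.14 between D2-Cre and D1-Cre, and Rpl23 had 0.46 between the sexes in D2. Rpl22l1 between the sexes in D1-D2 had −0.040 with DESeq2 size factors, −0.037 with DESeq2, −0.059 without libraries above 90%, −0.013 with the complexity covariate, −0.036 without libraries above 50%, −0.0026 with batch 1 alone, −0.024 without 17376 and 19749, and −0.078 to 0.13 with 1 library left out.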
